A study of Mus musculus with 5 samples.

Results

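Endothelial cells recruit leukocytes from the blood with a small set of surface molecules, and 8 of their genes were examined here: Pecam1, Icam1, Icam2, Vcam1, Sele, Selp, Cd34 and Aoc3. They were taken as all probes whose gene name on the array is one of these symbols, which gave 15 probes of 56605 and 8 gene names of 37074. RNA was hybridized with 1 colour (Cy3) to 5 Agilent 60-mer mouse arrays, 1 array for each condition. LSECs (liver sinusoidal endothelial cells) came from mouse liver, and TECs (tumor endothelial cells) came from orthotopic liver tumors of the human hepatoma lines HAK-1B and KYN-2 and of the mouse hepatoma line Hepa1-6, which was also read as cultured cells without endothelium. Wherever 3 values are given for the TECs, they stand in the order HAK-1B, Hepa1-6, KYN-2.

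The labels give the strain as C57BL/6 for LSECs and for all 3 TECs and as C57L for the cultured cells. The methods state female 6-week-old mice, either C57BL/6 or BALB/c nude, and no label ties the nude strain to a tumor. The paragraph of the methods on these arrays names Huh-7 where the labels name HAK-1B. LSECs and TECs were both isolated with magnetic beads, which for tumors were directed against CD31, the protein of Pecam1. The paper also lists LSECs among its isolated CD31-positive cells, so Pecam1 was also the handle of the selection. No treatment was given to any of the 5 samples according to the labels.

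Leukocytes first roll along the vessel wall on selectins and sialomucins, then arrest on members of the immunoglobulin superfamily through their integrins, and then cross the endothelium at its junctions. E-selectin (Sele) and P-selectin (Selp) are rolling receptors, and CD34 is a sialomucin that can carry selectin ligands and marks capillary endothelium. ICAM-1, ICAM-2 and VCAM-1 bind leukocyte integrins, CD31 acts at the junction, and Aoc3 encodes VAP-1, an amine oxidase that supports adhesion in liver sinusoids. LSECs are unusual among endothelia in that they carry little CD34.

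The probes below are shown as examples of the stretches of transcript that were read. Each is a 60-base probe as listed for the array, 5′ to 3′, with at least 1 reading frame free of stop codons, and no letter is capitalised. The Cd34 probe is the second of its pair, whose direction in Hepa1-6 TECs was opposite to that of the first. The first probe of a gene, used below unless another is named, is the one with the highest mean signal.
Pecam1: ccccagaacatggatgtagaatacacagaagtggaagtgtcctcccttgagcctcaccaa
Icam1: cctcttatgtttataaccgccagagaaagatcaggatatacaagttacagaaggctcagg
Vcam1: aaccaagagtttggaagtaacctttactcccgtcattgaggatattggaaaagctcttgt
Selp: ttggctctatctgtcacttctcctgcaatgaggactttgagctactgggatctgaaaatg
Cd34: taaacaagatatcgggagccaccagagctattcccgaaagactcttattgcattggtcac

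In the coordinates of the array files (mm9) these probes lie at chr11:106540864-106540923, chr9:20832290-20832349, chr3:115828953-115829012, chr1:166071558-166071617 and chr1:196785280-196785339. The other probes used for these genes lie on the same chromosomes, and Sele (chr1:165987726-165987785), Icam2 (chr11:106238971-106239030) and Aoc3 (chr11:101203172-101203231) are read by their first probe at the positions given. Exon and intron annotation of this build was not used here.

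Promoter sequence from RefSeq (GRCm38.p6) was matched for 4 of the 8 genes, Icam1, Sele, Selp and Cd34. For Sele the start of this promoter lies inside the RefSeq gene span (chr1:164039614-164058487), not at its first base. The 250 bases before the start are printed for Icam1 (chr9:21015690-21015939, plus strand) and Sele (chr1:164047984-164048233, plus strand), since these 2 promoters share a motif, and capitals mark it.
Icam1: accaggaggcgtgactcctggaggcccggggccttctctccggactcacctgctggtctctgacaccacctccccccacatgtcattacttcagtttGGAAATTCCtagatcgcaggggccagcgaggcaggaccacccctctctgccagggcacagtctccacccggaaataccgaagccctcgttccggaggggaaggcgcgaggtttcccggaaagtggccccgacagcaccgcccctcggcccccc
Sele: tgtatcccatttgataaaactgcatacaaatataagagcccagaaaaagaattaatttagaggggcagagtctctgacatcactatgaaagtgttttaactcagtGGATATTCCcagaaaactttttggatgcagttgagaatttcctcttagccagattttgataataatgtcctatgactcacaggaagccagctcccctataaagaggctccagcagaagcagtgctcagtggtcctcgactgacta

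The shared motif is GGANNNTCC, which was chosen after the promoters had been seen. It starts 153 bases before the start of Icam1 and 145 bases before the start of Sele, and it reads the same way on both strands, so each match is 1 site. Of 32851 promoters in the table, 7.27% hold it in the same 250-base window. The stricter NF-kB consensus was in none of the 4 promoters and in 3.9% of all. Of the other motifs searched on both strands, TATAAA was in Sele alone (12.4% of all promoters), TGANTCA in Sele and Selp (6.75%), AGATAAG in none (2.74%), GGGCGG in Icam1 (32.7%), CACCC in Icam1 and Selp (52.0%) and GGAAG in all 4 (64.1%). TGANTCA also reads the same way on both strands, and each motif was counted whether or not it overlapped another.

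Levels are given as log2 of the background-subtracted signal, quantile normalized over the 5 arrays, and a level is called above background where the scanner software marked the spot as well above background. Levels of different probes are not set against each other. Between 44.6% and 57.6% of probes were above background on 4 of the arrays, whereas the Hepa1-6 TEC array had 78.1%, and that array stands apart. No probe was saturated, and repeated spots within an array had a median coefficient of variation between 2.53% and 2.94%. The TEC arrays shared 1 slide and the remaining arrays were on separate slides, which means that slide and group cannot be told apart. With 1 array per condition there is no spread between animals for any single level, and differences between neighbouring levels were set only against the error that the scanner software gives for each spot.

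The labels were set against marker genes. All 15 pan-endothelial markers, Cdh5 and Kdr among them, were above background on each of the 4 endothelial arrays, and 11 of the 15 were not in cultured Hepa1-6 cells. The summed signal of these markers relative to LSECs was 0.127 in HAK-1B TECs, 0.127 in Hepa1-6 TECs and 0.248 in KYN-2 TECs. The 10 LSEC markers, such as Stab2 and Clec4g, summed to 0.127, 0.110 and 0.145 of the LSEC level. The 8 adhesion genes summed to 0.526, 0.452 and 0.888 of their level in LSECs. That sum rests mostly on the brightest probes, those of Icam2, Vcam1 and Icam1, with log2 levels of 15.62, 15.01 and 14.16 in LSECs. It says little about the other genes, such as Cd34, whose ratios are given below. A smaller number of endothelial cells in a sample and less RNA per endothelial cell cannot be told apart from these bulk arrays alone. The paper also measured the purity of its isolated LSECs and TECs by flow cytometry, which is not part of these arrays. It regards cancer cell contamination as unavoidable with this isolation, and it removed cancer cell-related genes from its list of TEC-specific genes. The 10 hepatocyte markers summed to 0.039, 1.95 and 0.061 of the LSEC level in the 3 TECs, and to 0.697 in cultured Hepa1-6 cells. Their median log2 ratios in the TECs were -4.78, -0.64 and -3.25. At 2-fold, 0, 2 and 1 of them were higher and 9, 5 and 9 lower.

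**Figure D1:**
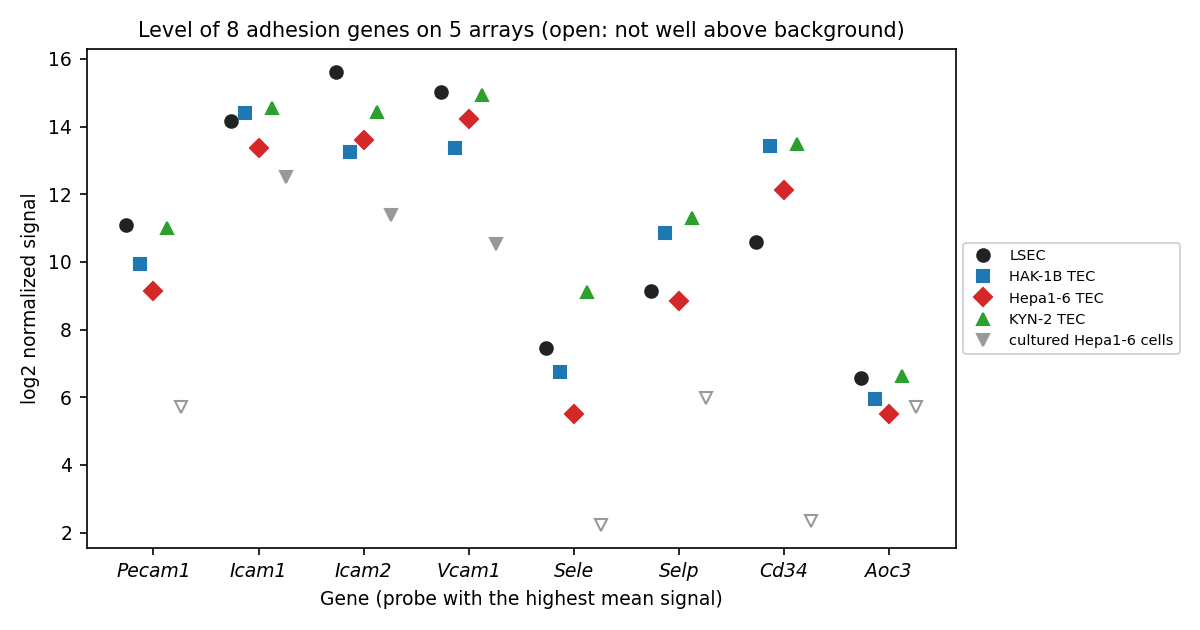
The vertical axis is the log2 normalized signal of the first probe of each gene, and each symbol is 1 array. All 8 genes were above background on the 4 endothelial arrays (filled symbols), and 5 of them were not in cultured Hepa1-6 cells (open symbols).

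Pecam1, the junctional molecule used for the selection, had log2 levels of 11.10 in LSECs, 9.93 in HAK-1B TECs, 9.15 in Hepa1-6 TECs and 11.01 in KYN-2 TECs, and 5.70 in cultured Hepa1-6 cells, where it was not above background. LSECs and KYN-2 TECs were the highest and were 0.09 apart, within the spot error of 0.19, while the other neighbours in this order were farther apart than their error. Relative to LSECs, Pecam1 was 2.25-fold lower in HAK-1B TECs and 3.87-fold lower in Hepa1-6 TECs, and the mean over the 3 TECs was -1.07 ± 0.93 on the log2 scale (SD, n = 3). The mean without the Hepa1-6 TEC array was -0.63. Platelets and leukocytes also carry CD31. The 10 platelet markers summed to 0.400, 0.630 and 1.32 of the LSEC level in the 3 TECs, and the 10 pan-leukocyte markers to 3.31, 1.53 and 1.61, with all 10 of each list above background on every endothelial array. Of 10 neutrophil markers, 8, 8 and 5 were at least 2-fold higher in the 3 TECs and 0, 1 and 1 lower. Their median log2 ratios were 4.92, 3.56 and 1.15, while their sums were 2.19, 0.704 and 0.848 of the LSEC level. In LSECs 7 of these 10 markers were above background. The part of platelets and leukocytes in the level of Pecam1 was not tested.

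Icam2, a constitutive endothelial ligand of the integrin LFA-1, was the only one of the 8 genes that was at least 2-fold lower in all 3 TECs. Its log2 level was 15.62 in LSECs, 13.26 in HAK-1B TECs, 13.61 in Hepa1-6 TECs, 14.43 in KYN-2 TECs and 11.39 in cultured Hepa1-6 cells, and the 5 levels were separated by more than the spot error throughout. LSECs thus had the highest of these levels, but 1 LSEC array gives no spread between animals to set it against. Icam2 was 5.14-fold lower in HAK-1B TECs, 4.03-fold in Hepa1-6 TECs and 2.28-fold in KYN-2 TECs, and the mean log2 ratio was -1.85 ± 0.60 (SD, n = 3). Over all genes measured in all 3 comparisons, 11% were at least 2-fold lower in each TEC. With arrays scaled to their 75th percentile the ratio in KYN-2 TECs was -0.60, and no gene of the 8 was then 2-fold lower in all 3. The second Icam2 probe was not above background on any array and gives no direction, and averaging it with the first gave a mean of -0.68.

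Icam1, the cytokine-inducible ligand of LFA-1 and Mac-1, had levels of 14.16 in LSECs, 14.40 in HAK-1B TECs, 13.38 in Hepa1-6 TECs, 14.56 in KYN-2 TECs and 12.50 in cultured Hepa1-6 cells. It was above background on all 5 arrays, including the tumor cells grown without endothelium. KYN-2 and HAK-1B TECs differed by 0.16, within the spot error, and LSECs lay 0.24 below HAK-1B TECs. The log2 ratios to LSECs were 0.24, -0.78 and 0.40, a mean of -0.04 ± 0.64 (SD, n = 3), and the mean turned to 0.32 without Hepa1-6 TECs and to 0.27 under scaling to the 75th percentile. The second Icam1 probe, printed above, gave 0.40, -1.75 and 0.50. Both probes were thus highest in KYN-2 TECs and lower than LSECs in Hepa1-6 TECs alone.

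Vcam1, the ligand of the integrin VLA-4, had levels of 15.01 in LSECs, 13.36 in HAK-1B TECs, 14.24 in Hepa1-6 TECs, 14.94 in KYN-2 TECs and 10.53 in cultured Hepa1-6 cells. LSECs and KYN-2 TECs were 0.08 apart, within the spot error, and HAK-1B TECs were the lowest of the endothelial arrays. HAK-1B TECs were 3.14-fold lower than LSECs, Hepa1-6 TECs 1.71-fold lower, and the mean log2 ratio was -0.84 ± 0.79 (SD, n = 3). The ratio in KYN-2 TECs was -0.08 and turned to 0.49 when arrays were scaled to the 75th percentile. The second probe gave -1.73, -0.25 and -0.01, in the same order. Vcam1 is also made by stromal cells and macrophages. Fibroblast and stellate cell markers summed to 1.45, 9.66 and 3.81 of the LSEC level in the 3 TECs. The median log2 ratios of this list were -0.48, 1.39 and 0.63, so the sum in HAK-1B TECs does not stand for the whole list. Of the 10 fibroblast markers, 3, 5 and 4 were at least 2-fold higher and 2, 0 and 1 lower. Macrophage and Kupffer cell markers, taken as 1 list, summed to 0.701, 0.408 and 0.442, with median log2 ratios of 0.14, -1.204 and -0.998. Of these 10 markers, 4, 5 and 5 were at least 2-fold lower and 0, 0 and 1 higher. In HAK-1B TECs the lower ones were Clec4f, Cd5l, Marco and Vsig4, so the sum there does not stand for the whole list. On the LSEC array 7 of 10 fibroblast markers were above background, with Col1a1, Lrat and Des not. Cultured Hepa1-6 cells read 30.8 on the fibroblast sum with 2 of the 10 markers above background. The part of these cells in Vcam1 was not tested.

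Sele, the cytokine-induced selectin, was the gene with the widest range over the TECs. Its levels were 7.47 in LSECs, 6.74 in HAK-1B TECs, 5.52 in Hepa1-6 TECs and 9.12 in KYN-2 TECs, and in cultured Hepa1-6 cells it was not above background (2.22). Each of these levels was separated from the next by more than the spot error. KYN-2 TECs were 3.16-fold above LSECs, 5.24-fold above HAK-1B TECs and 12.2-fold above Hepa1-6 TECs. The ratios to LSECs were -0.73, -1.95 and 1.66, a mean of -0.34 ± 1.83 (SD, n = 3), and without the Hepa1-6 TEC array the mean was 0.46. The Hepa1-6 ratio was -1.22 under scaling to the 75th percentile and -1.17 after normexp background correction. A single probe reads Sele on this array.

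Selp, which endothelial cells store in Weibel-Palade bodies and platelets in their granules, had levels of 9.13 in LSECs, 10.87 in HAK-1B TECs, 8.83 in Hepa1-6 TECs and 11.30 in KYN-2 TECs, with 5.97 in cultured Hepa1-6 cells, not above background. HAK-1B and KYN-2 TECs were both above LSECs, by 3.32-fold and 4.48-fold, and Hepa1-6 TECs were slightly below. The mean log2 ratio was 1.20 ± 1.32 (SD, n = 3), and 1.95 without the Hepa1-6 TEC array. The other Selp probes gave 0.61, -0.43 and 1.65, and 1.26, -0.47 and 1.97, so all 3 probes ordered the TECs in the same way. Of the 10 platelet markers, whose sums are given with Pecam1, 8, 8 and 3 were at least 2-fold lower in the 3 TECs and 0, 0 and 1 higher, and their part in Selp was not tested.

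Cd34 was the only gene of the 8 that was at least 2-fold higher in all 3 TECs by its first probe. Its levels were 10.60 in LSECs, 13.42 in HAK-1B TECs, 12.14 in Hepa1-6 TECs and 13.48 in KYN-2 TECs, and 2.33 in cultured Hepa1-6 cells, not above background. LSECs were the lowest endothelial array by 1.53, and HAK-1B and KYN-2 TECs differed by 0.06, within the spot error. Cd34 was 7.04-fold, 2.89-fold and 7.33-fold above LSECs, a mean log2 ratio of 2.41 ± 0.76 (SD, n = 3). Over all genes, 6.05% were at least 2-fold higher in each TEC.

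The second Cd34 probe, printed above, had levels of 6.40 in LSECs, 7.56 in HAK-1B TECs, 5.18 in Hepa1-6 TECs and 7.91 in KYN-2 TECs. Its ratios of 1.16 and 1.51 were in the same direction in HAK-1B and KYN-2 TECs, but the ratio of -1.22 in Hepa1-6 TECs was opposite to the 1.53 of the first probe. The 2 probes were 2.75 apart there, where the median range between probes of a gene over 5543 genes was 0.68 and the upper quartile 1.29. When all probes of a gene were averaged, the mean of Cd34 was 1.45 and no gene of the 8 was at least 2-fold higher in all 3 TECs. Fibroblasts also carry Cd34, the sums and medians of their markers are those given for Vcam1, and their part in Cd34 was not tested.

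Aoc3, the gene of VAP-1, had levels of 6.58 in LSECs, 5.95 in HAK-1B TECs, 5.51 in Hepa1-6 TECs and 6.63 in KYN-2 TECs, and 5.70 in cultured Hepa1-6 cells, not above background. KYN-2 TECs and LSECs were 0.05 apart, within the spot error, and so were HAK-1B TECs and Hepa1-6 TECs from the value in cultured cells. The log2 ratios were -0.64, -1.07 and 0.05, a mean of -0.55 ± 0.57 (SD, n = 3), and the Hepa1-6 ratio was -0.33 under scaling to the 75th percentile, where the KYN-2 ratio turned to -0.03. The second Aoc3 probe read 1.05, 0.89 and 1.12 against LSECs, opposite to the first in HAK-1B and Hepa1-6 TECs, but it was above background on the Hepa1-6 TEC array alone and gives no fold. With both probes averaged the mean of Aoc3 was 0.23. Smooth muscle and adipocytes also make this enzyme: smooth muscle and pericyte markers summed to 2.01, 1.91 and 2.81 and adipocyte markers to 0.207, 0.486 and 0.845 of the LSEC level in the 3 TECs, and their part was not tested.

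**Figure D2:**
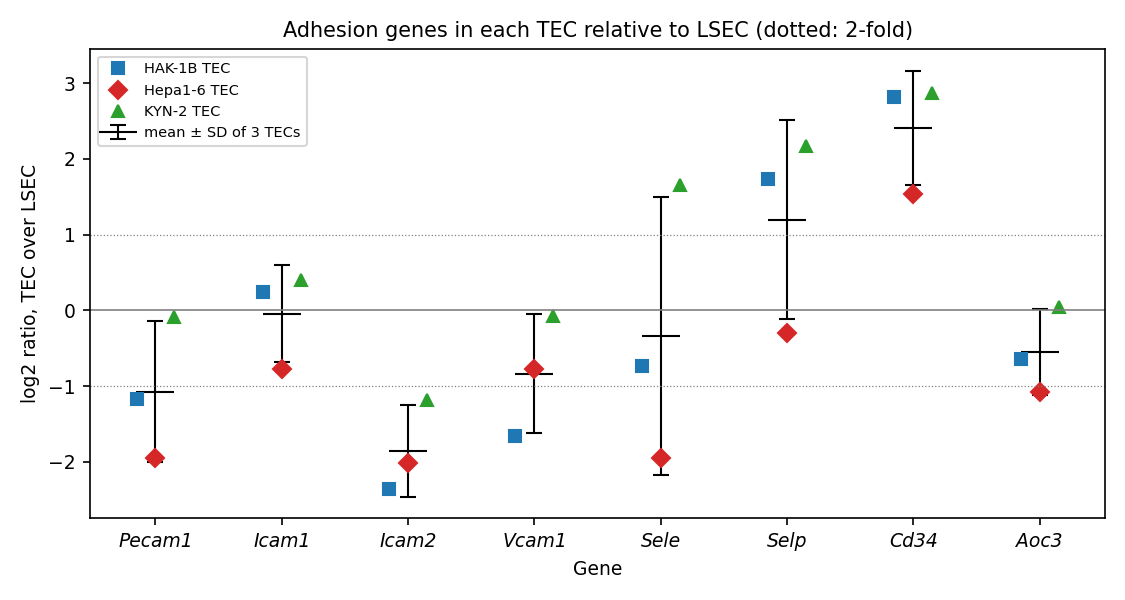
Each symbol is the log2 ratio of 1 TEC array to the LSEC array for the first probe of a gene, and the black bar is the mean with its SD over the 3 TECs. Cd34 lies above the upper 2-fold line and Icam2 below the lower one in all 3 TECs, while the TECs lie on both sides of LSECs for Icam1, Sele, Selp and Aoc3.

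**Figure D3:**
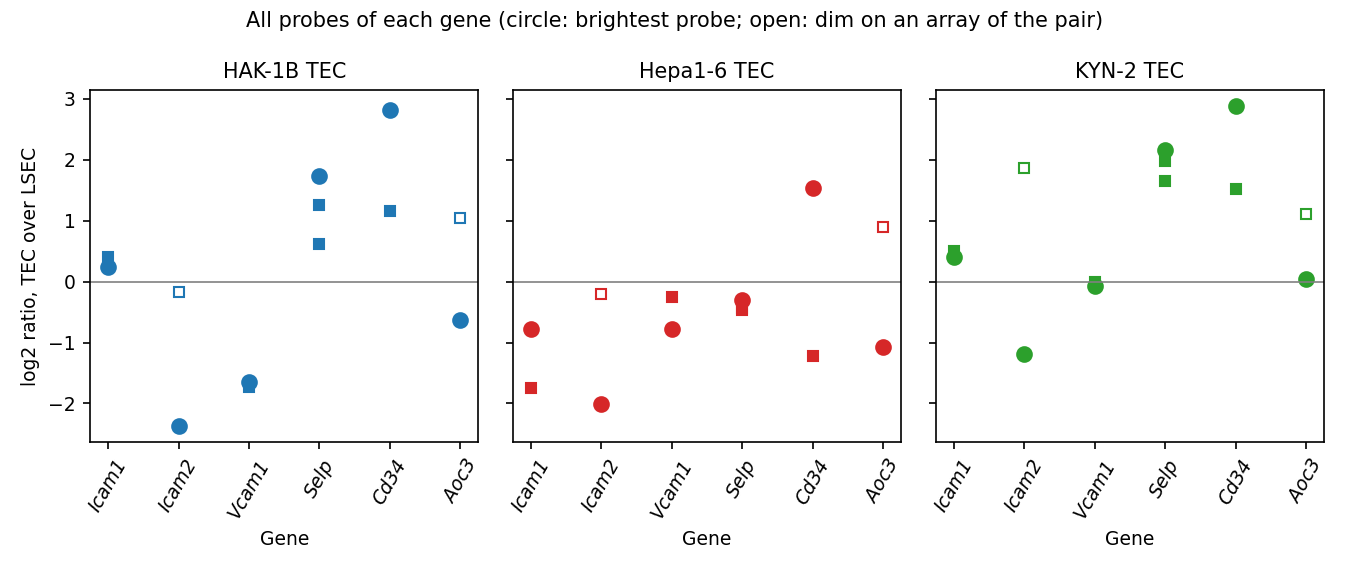
Each symbol is the log2 ratio of a TEC to LSECs for 1 probe of the 6 genes with more than 1 probe, a circle for the first probe, open where the probe was not above background on an array of the pair. Probes of Icam1, Vcam1 and Selp lie on the same side of zero in each panel, while the Cd34 probes lie on opposite sides in Hepa1-6 TECs.

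The calling rule of the methods joins a ratio (1.5 or above, 0.66 or below) with a Z-score (2 or above, -2 or below), with no formula for the latter. Here it was computed by subtracting from each log2 ratio the mean over the probes kept and dividing by their SD, and lincRNA probes, which the methods exclude, were kept. On these arrays this came to a difference of 7.14-fold upwards and 6.83-fold downwards for HAK-1B TECs, 12.0-fold and 10.3-fold for Hepa1-6 TECs, and 6.76-fold and 6.74-fold for KYN-2 TECs. By this rule none of the 8 genes was called in HAK-1B TECs (3.07% of all genes were called higher and 3.9% lower) or in Hepa1-6 TECs (4.3% and 1.84%). In KYN-2 TECs only Cd34 was called, as higher (3.53% of all genes higher, 2.88% lower). Cd34 had a Z-score of 2.08 there and of 1.99 in HAK-1B TECs, just short of the rule, and with normalization by pair, as in the methods, it called 0 of the 8 in KYN-2 TECs. None of the 8 was called in all 3 TECs, where 0.519% of all genes were called higher and 0.986% lower.

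At a difference of 2-fold, Selp and Cd34 were higher in HAK-1B TECs (17.2% of all genes) and Pecam1, Icam2 and Vcam1 were lower (17.7%). In Hepa1-6 TECs Cd34 was higher (25.0%) and Pecam1, Icam2, Sele and Aoc3 were lower (22.8%). In KYN-2 TECs Sele, Selp and Cd34 were higher (16.9%) and Icam2 was lower (18.3%). The median log2 ratio of the 8 genes was -0.68, -0.93 and 0.23 in the 3 TECs, beside medians of all genes of -0.00, 0.07 and -0.04. Scaling to the 75th percentile in place of quantile normalization moved the median of all probes in Hepa1-6 TECs from 0.04 to 0.44. That median moved by less than 0.1 in the other TECs. It does not give the shift of a single gene. In KYN-2 TECs the ratio moved from 0.40 to 0.84 for Icam1, from -1.19 to -0.60 for Icam2 and from -0.08 to 0.49 for Vcam1. For Cd34 it moved there only from 2.87 to 2.97. In Hepa1-6 TECs Icam2 moved from -2.01 to -1.68 and Cd34 from 1.53 to 1.41.

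In each TEC all 8 genes had a ratio above the median of the 15 pan-endothelial markers, which was -2.85 in HAK-1B TECs, -2.70 in Hepa1-6 TECs and -1.75 in KYN-2 TECs. Of all genes, 96.4%, 95.8% and 92.1% also lay above those medians. The lowest ratios among the 8, all of Icam2, were -2.36, -2.01 and -1.19. Pan-endothelial markers at least 2-fold lower numbered 14, 15 and 13 of 15, none of them at least 2-fold higher.

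**Figure D4:**
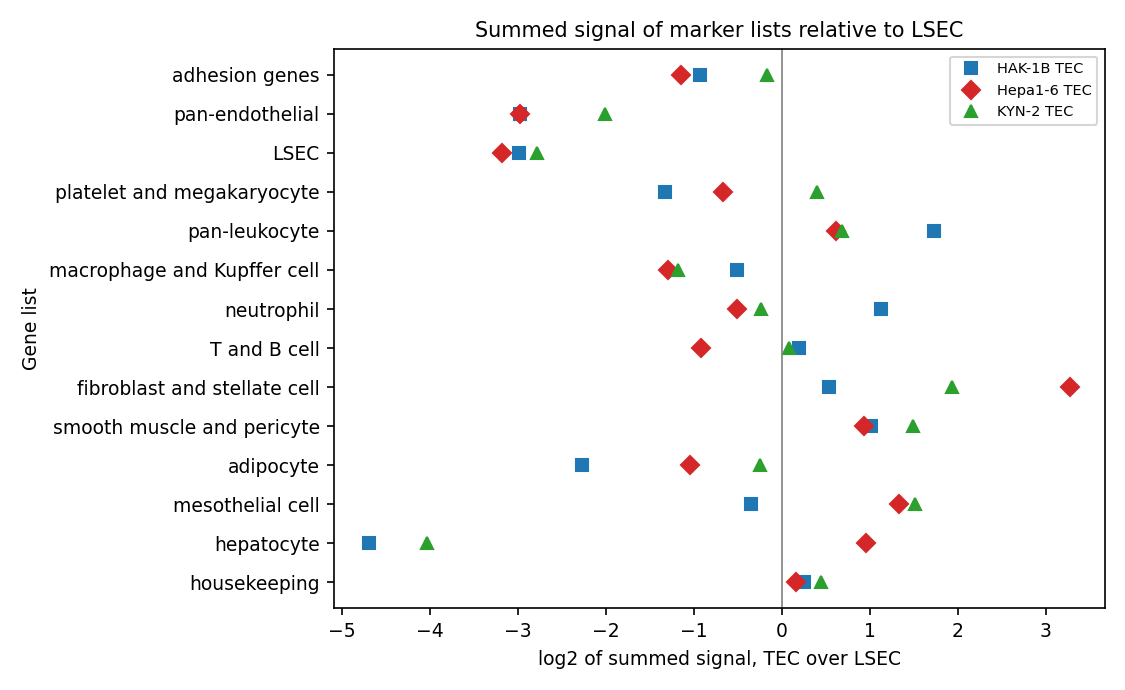
The horizontal axis is the log2 of the summed signal of a gene list in a TEC over that in LSECs, with a symbol for each TEC and the 8 adhesion genes in the top row. The adhesion genes lie to the right of the pan-endothelial and LSEC rows in every TEC, and fibroblast, smooth muscle and pan-leukocyte rows lie to the right of zero. A sum rests mostly on the brightest probes of its list, for the adhesion genes in LSECs on Icam2, Vcam1 and Icam1. The median log2 ratio of the fibroblast list was -0.48 in HAK-1B TECs, below zero.

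The 3 TECs were next compared with each other. KYN-2 TECs had the highest level of all 8 genes, where 27.8% of all genes were highest in KYN-2 TECs, and Hepa1-6 TECs had the lowest level of 6, all but Icam2 and Vcam1, where 39.4% of all genes were lowest there. KYN-2 TECs were also highest for all 8 under scaling to the 75th percentile, normexp correction and the deposited table, and Hepa1-6 TECs were lowest for 5 under the first of these. Against HAK-1B TECs, KYN-2 TECs were at least 2-fold higher in Pecam1, Icam2, Vcam1 and Sele (10.5% of all genes) and lower in none (10.1%). Against Hepa1-6 TECs, they were higher in Pecam1, Icam1, Sele, Selp, Cd34 and Aoc3 (18.5%) and lower in none (20.5%). Hepa1-6 TECs were at least 2-fold lower than HAK-1B TECs in Icam1, Sele, Selp and Cd34 (19.6%) and higher in none (22.0%). By the rule of ratio and Z-score only Sele was called, as higher in KYN-2 TECs than in HAK-1B TECs (3.11% of all genes higher, 2.73% lower) and than in Hepa1-6 TECs (1.39% higher, 4.39% lower). Between Hepa1-6 and HAK-1B TECs it called none of the 8 (4.78% higher, 1.39% lower). Among the TECs the hepatocyte markers, whose sums are given above, were highest in Hepa1-6 TECs. The part of tumor cells or hepatocytes in the levels of the 8 genes was not tested.

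In cultured Hepa1-6 cells, the tumor cells of 1 of the 3 models, Icam1, Icam2 and Vcam1 were above background and the other 5 genes were not by their first probe. One of the other Selp probes did read 7.54 in the cultured cells, above background. For Cd34 the level in TECs exceeded that in cultured cells at least 132-fold and the level in LSECs at least 25.0-fold, with the cultured cells taken at the lowest signal above background on that array or at the own value of the probe, whichever was higher. For Pecam1 these bounds were 16.7-fold and 35.2-fold, and for the first Selp probe 20.6-fold and 8.98-fold, whereas the Selp probe above background in cultured cells gave measured differences of 2.11-fold and 1.11-fold. For Sele they were 2.24-fold and 2.84-fold. Icam1 was 3.06-fold higher in TECs than in cultured cells, Icam2 5.18-fold and Vcam1 12.5-fold. The second Icam1 probe gave 1.87-fold, with Hepa1-6 TECs (8.47) below cultured cells (9.04). For the second Cd34 probe the bounds in TECs and LSECs were only 1.89-fold and 1.35-fold, and for the second Vcam1 probe 16.9-fold and 26.8-fold. At 2-fold, 7 of the 8 were lower in cultured cells than in LSECs (30.6% of all genes), with Aoc3 the exception, and none was higher (27.8%). By the rule of ratio and Z-score Cd34 alone was lower (4.63%) and none was higher (2.63%), but its bound of 25.0-fold was short of the 49.2-fold that the rule needed.

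By the measured values, which for 5 of the 8 genes lay below background in cultured cells, the same 7 genes were at least 2-fold higher in HAK-1B TECs than in cultured cells (29.2% of all genes higher, 27.6% lower) and in KYN-2 TECs (28.2% higher, 26.5% lower), and none of the 8 was lower. In Hepa1-6 TECs 6 were higher, without Icam1 (25.8%), and none was lower (23.5%). By the rule of ratio and Z-score Cd34 was higher in HAK-1B TECs (4.42%, with 2.48% lower) and in Hepa1-6 TECs (4.73%, with 1.56% lower). In KYN-2 TECs the rule called Pecam1, Sele, Selp and Cd34 as higher (4.63%, with 2.68% lower). With the cultured cells taken at the bound instead, the 2-fold counts were 6, 5 and 7, without Sele in HAK-1B and Hepa1-6 TECs, where the bound gave 1.71-fold and no fold. The rule of ratio and Z-score then called Cd34 in each TEC and also Selp in KYN-2 TECs, while Pecam1 at 33.0-fold and Sele at 8.96-fold were short of the 37.6-fold needed there. This bound was chosen after seeing the data. It was applied to the 8 genes alone, so no share of all genes stands beside these counts. The fold needed was computed from the measured values of all probes kept, without the bound. The counts at the bound are thus no result about the 8 genes.

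A test over samples is possible only by taking the 3 TECs as replicates of a tumor state and a lone array as the other side, which is then assumed to vary like the TECs. In limma, with 2 residual degrees of freedom and Benjamini-Hochberg adjustment over 45645 probes, none of the 14 probes of these genes that were tested differed between TECs and LSECs at an adjusted p of 0.05, as none of all probes did (0.0%). The smallest values were those of Cd34, a log2 difference of 2.41 with SE 0.62 (adjusted p = 0.322 in limma), and Icam2, -1.85 with SE 0.54 (adjusted p = 0.367 in limma). Cd34 was higher and Icam2 lower in 3 of 3 TECs, and these 2 probes were the only ones of the 14 with an unadjusted p under 0.05, where 9.25% of all probes had one. Over the alternatives the adjusted p of Cd34 ran from 0.0624 to 0.555 and that of Icam2 from 0.107 to 0.601. Without the HAK-1B TEC array 718 of all probes passed, and without the KYN-2 TEC array 340, but none of these genes.

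Between TECs and cultured Hepa1-6 cells, limma called 5 of the 14 probes, where 4.96% of 45662 probes were called. They were the first Cd34 probe (adjusted p = 0.00248 in limma), both Vcam1 probes (adjusted p = 0.0438 and 0.0492), the Pecam1 probe (adjusted p = 0.0484) and 1 of the other Selp probes (adjusted p = 0.0477). All 5 were higher in 3 of 3 TECs. Apart from the first Vcam1 probe, they were not above background in cultured cells and entered the test only through the TECs, so this count is no support for a difference. Among probes above background on all 4 arrays, 0 of the 5 tested passed, with a smallest adjusted p of 0.0567 in limma. Without the Hepa1-6 TEC array 0 of the 14 passed, without the KYN-2 TEC array 3 and without the HAK-1B TEC array 7, so the number called rests on which TECs were included.

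Partners and regulators of these molecules were described from 6 lists, whose counts stand beside the 17.2%, 25.0% and 16.9% of all genes that were at least 2-fold higher in the 3 TECs and the 17.7%, 22.8% and 18.3% that were lower. Of 17 leukocyte counter-receptors, the molecules on leukocytes that bind these ligands, 8, 4 and 3 were at least 2-fold higher and 2, 3 and 3 were lower. The largest mean difference was in Itgax, the integrin alpha chain CD11c of dendritic cells and macrophages, at 5.08 ± 0.99 (log2, SD, n = 3), from 8.53 in LSECs to between 12.96 and 14.75 in TECs. Selplg, the P-selectin ligand PSGL-1, was higher by 1.67 ± 0.85. Itga9, an integrin alpha chain that binds VCAM-1, was lower at -1.996 ± 0.26. Itgax and Selplg are expressed by leukocytes, whose pan-leukocyte markers summed to 3.31, 1.53 and 1.61 of the LSEC level, and that part was not tested.

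Of 27 other adhesion and transmigration molecules of endothelium on the array, 10, 17 and 7 were at least 2-fold lower and 7, 4 and 8 higher. The sinusoidal lectin Clec4g was lower at -4.01 ± 0.32, the scavenger receptor Stab2 at -3.53 ± 0.74, and Ackr1, the chemokine receptor of venules, at -3.47 ± 0.67 (log2, SD, n = 3). The median ratio of this list was -0.40, -1.58 and -0.40. Clec4g and Stab2 were also among the markers of LSECs.

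Of 17 genes of selectin ligand glycosylation, 5, 5 and 6 were at least 2-fold lower and 2, 2 and 1 higher. The sialyltransferases St3gal4 and St3gal6 were lower at -2.33 ± 0.01 and -2.15 ± 0.35, and the sulfotransferase Chst2 at -2.10 ± 0.74 (log2, SD, n = 3). Among 20 membrane linkers and signalling genes of adhesion, 6, 4 and 1 were lower and 4, 3 and 3 higher. Ptprb, the endothelial phosphatase of the junction, was lower at -3.53 ± 0.56 and vinculin (Vcl) at -1.42 ± 0.60, whereas ezrin (Ezr), which links ICAMs to actin, was higher at 1.39 ± 0.57.

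Of 31 cytokine receptors and regulators of NF-kB and endothelial transcription, 7, 10 and 7 were at least 2-fold lower and 10, 2 and 3 higher. The tumor necrosis factor receptor Tnfrsf1b was higher at 2.01 ± 0.86, while the interleukin-1 receptor Il1r1 and the endothelial transcription factor Erg were lower at -2.22 ± 0.10 and -2.40 ± 0.68 (log2, SD, n = 3). Among 10 amine oxidases and relatives of Aoc3, 3 were lower in each TEC and 3, 1 and 2 higher. Loxl3 was lower at -1.05 ± 0.69 and Loxl1 higher at 1.04 ± 1.09, on both sides of LSECs. Aoc2, which lies next to Aoc3 in the genome, was lower at -1.28 ± 0.28. Its level was 16.62 in LSECs and 15.35 in cultured Hepa1-6 cells, above background, so this signal was not limited to endothelium.

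The genes closest in pattern to each of the 8 were taken as those with the smallest root mean square difference over the 5 arrays after each gene was centred on its mean, among genes above background on the same number of arrays. The closest to Pecam1 was Gpr4 (0.15, with Cxx1c and Slc44a1 next), and the closest to Icam1 was Swap70 (0.06, then Exoc5 and Hpcal1). Tmem2 (0.175) came first for Icam2, before Txnip and Irf1, and Eml1 (0.21) for Vcam1, before Rasgrp2 and Adamts1. Sele was least closely matched, by Ctsk (0.36), LOC545005 and Lepr. Foxf1 (0.23), Slc37a2 and Ssu2 were the closest to Selp, Basp1 (0.27), Plau and Il7r to Cd34, and Gne (0.11), Lin52 and 2810468N07Rik to Aoc3. With 5 arrays such nearness is a description of these arrays.

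Among the 8 genes themselves, over the 4 endothelial arrays, the closest pair was Icam1 and Aoc3 at 0.32 and the farthest was Icam2 and Cd34 at 1.94. The next closest pairs were Pecam1 with Aoc3 at 0.34 and Icam2 with Vcam1 at 0.48. Selp lay nearest to Cd34, at 0.66, both being lower in LSECs than in HAK-1B and KYN-2 TECs.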

How the data were processed

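RNA of 5 samples was read on 60-mer mouse arrays with 1 colour, and the authors extracted spot values with Agilent Feature Extraction, version 9.5.1.1 in the labels. Spot intensity was deposited in linear units after background subtraction, with 0 or 1 flags, beside a table of intensity values normalized between arrays. Here control spots and population outliers were left out, spots of 1 probe were averaged, and quantile normalization of the log2 signals took in all 5 arrays, whereas the methods treat each pair. The first probe of a gene had the highest mean signal. A comparison kept probes above background on either side. limma 3.58.1 in R 4.3.3 used a variance trend, and the remaining steps used Python 3.11.15, numpy 2.4.6 and pandas 2.3.3. The size rule and limma were tested on simulated data. All 8 genes and all their probes were named, up to 3 genes of each related list by the size of their mean ratio among those above background on 4 endothelial arrays, and the 3 closest genes in pattern. The genes and lists were chosen with earlier results of these data known. Nothing in the labels gives more than 1 sample per condition. Slide was not fitted, since it coincided with group outside the TECs. The number of arrays limits the precision.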

Additional observations from a re-analysis of the deposited data

Results flagged for a closer look

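For 4 of the 8 genes the TECs lay on both sides of LSECs, and since each tumor line had 1 array the difference between lines was not tested. The range over the 3 TECs was widest for Sele at 3.61 on the log2 scale, with KYN-2 TECs above LSECs and the other TECs below. It was 2.47 for Selp, with Hepa1-6 TECs below LSECs and the other TECs above. It was 1.18 for Icam1, with Hepa1-6 TECs below, and 1.12 for Aoc3, where KYN-2 TECs were above LSECs by less than the spot error.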

How the results depend on the processing

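No paired analysis was possible because a condition had a single array and no numbered replicates. A block for slide could not be fitted, since slide and group coincide outside the TECs. The mean log2 ratio of each of the 8 genes moved by less than the SD over the 3 TECs under scaling to the 75th percentile, normexp and the deposited table. Leaving out a TEC cannot move a mean of 3 by as much as their SD, so it is no check on that scale. With all probes of a gene averaged, dim ones included, the mean moved from -1.85 to -0.68 for Icam2, from 2.41 to 1.45 for Cd34 and from -0.55 to 0.23 for Aoc3. For these means the averaging and the omission of TECs were chosen after seeing the data. In KYN-2 TECs the ratio turned from -0.08 to 0.49 for Vcam1 and from 0.05 to -0.034 for Aoc3 under scaling to the 75th percentile. The mean of Icam1 turned from -0.04 to 0.27 under the same scaling and ran from -0.27 to 0.32 as TECs were left out, and that of Sele from -1.34 to 0.46. The cause was not tested.

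Genes of the 8 higher in all 3 TECs at 2-fold numbered 1, 0 with all probes averaged, and 1 to 2 as TECs were left out. Those lower in all 3 numbered 1, 0 with all probes averaged or with scaling to the 75th percentile, and 1 to 2 as TECs were left out. By the rule of ratio and Z-score none was called in all 3, and dropping the Z-score gave 1 in each direction. Called genes in HAK-1B TECs numbered 0, and 1 with the deposited table or with both arrays above background, 2 with normexp or with no filter, and 7 with no Z-score. In Hepa1-6 TECs they numbered 0, and 1 with normexp and 7 with no Z-score. In KYN-2 TECs they numbered 1, and 2 with normexp, 0 with normalization by pair and 4 with no Z-score. With no Z-score the ratio alone decides, and 2-fold is stricter than that ratio. At 2-fold, 17.2% of all genes were higher and 17.7% lower in HAK-1B TECs. These shares were 25.0% and 22.8% in Hepa1-6 TECs, and 16.9% and 18.3% in KYN-2 TECs. No share of all genes under the same alternative stands beside the counts in this paragraph. The counts under the alternatives are thus no result about the 8 genes.

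Mean list medians moved from -0.40 to -0.16 for the linkers and from -0.27 to -0.16 for the amine oxidases with all probes averaged, and to -0.022 for the latter under scaling to the 75th percentile. Against LSECs, limma called 0 of all probes, 3 under scaling to the 75th percentile, and 0 to 718 as TECs were left out. Against cultured cells it called 2265, 3434 under scaling to the 75th percentile, 430 among probes above background on all 4 arrays, and 0 to 2184 as TECs were left out. Of the probes of the 8 genes it then called 5, and 2 with normexp, 1 with no filter, 0 with all 4 arrays above background, 1 with no trend and 0 to 7 as TECs were left out.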
